A study of Mus musculus with 1536 samples.

Results

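Single lymphatic endothelial cells (LECs) of the nasopharyngeal mucosa of adult C57BL/6 mice were examined for 9 genes that sense viral and bacterial products or relay the alarm. The genes were taken by symbol from the adult expression matrix: the Toll-like receptors *Tlr2*, *Tlr3* and *Tlr4*, the Toll-like receptor adaptor *Myd88*, the RNA sensors *Ddx58* (RIG-I) and *Ifih1* (MDA5), their adaptor *Mavs*, the DNA-pathway adaptor *Tmem173* (STING), and *Zbp1*, a sensor of left-handed nucleic acid. All 9 had a row among the 23168 genes, and every adult cell of the matrix was used. Cells were sorted as CD31+ PDPN+ after tissue of several mice of both sexes had been pooled, and the labels name no treatment. Each well gave a Smart-seq3 library, which covers transcripts over their whole length. Because neither mouse nor plate can be read from the labels, the cells were treated as 1 sample, and no difference between cells was tested. Aged mice were not analysed here.

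Toll-like receptors sit in the plasma membrane or in endosomes. TLR2 binds bacterial lipoproteins and TLR4 binds lipopolysaccharide, while TLR3 binds double-stranded RNA inside endosomes. RIG-I and MDA5 bind viral RNA in the cytosol and pass the signal to MAVS on mitochondria, and STING answers to the cyclic dinucleotide that cGAS makes from cytosolic DNA. The TLR3, RIG-I, MDA5 and STING routes lead to type I interferon, whose receptor in turn raises interferon-stimulated genes. *Ddx58*, *Ifih1*, *Zbp1* and *Tlr3* are textbook examples of sensors that are themselves interferon-stimulated. The state of that response was summarised in each cell as the mean natural-log value of *Isg15*, a ubiquitin-like modifier, *Usp18*, the protease that removes it, and *Ifit1*, which binds foreign RNA. This mean is called the interferon score.

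The sorted cells carried the LEC markers: *Prox1*, *Flt4*, *Pdpn*, *Cdh5* and *Pecam1* were each found in more than 95% of cells and *Lyve1* in 86.8%. The shallowest cell had 7433 reads, the median cell 350746 and the deepest 3524358, and 2001 to 7236 genes were found in a cell. Of 7 immune markers, 6 had a row. Among these, *Ptprc* and *Cd3e* were found in 0 cells, which allows a share of up to 0.356%. At least 1 of the other 4 (*Cd68*, *Lyz2*, *Csf1r*, *Cd79a*) was found in 25.2% of cells, and 3 or more together in 1 cell only. In that cell the immune genes summed to 286.3 reads per 10000, and it contained *Tlr2*, *Ddx58*, *Ifih1* and *Tmem173*.

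Short sequences around a promoter motif that interferon-activated factors bind are shown first, because it was matched in *Isg15* and *Ifit1* but in only 1 of the 6 sensing genes searched. The motif searched, of the interferon-stimulated response element (ISRE) type, was GAAA, any 2 bases and GAAA again, or TTTC, any 2 bases and TTTC on the other strand, in the 250 bases before the start of each RefSeq gene on GRCm38.p6. It was present in 2.98% of 32851 promoters. *Isg15* had 3 overlapping matches (chr4:156200865-156200906, minus strand) and *Ifit1* had 2 (chr19:34640775-34640823, plus strand), all outside annotated genes. Of the 6 sensing genes with a promoter in the table (*Tlr2*, *Tlr3*, *Myd88*, *Ddx58*, *Ifih1* and *Mavs*), *Myd88* alone had a match (chr9:119340039-119340068, minus strand), and it lay in a *Myd88* exon of the GENCODE annotation. Each stretch is given 5′ to 3′ in the direction of its gene with the matched bases in capitals.
Isg15: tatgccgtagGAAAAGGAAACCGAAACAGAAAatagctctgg
Ifit1: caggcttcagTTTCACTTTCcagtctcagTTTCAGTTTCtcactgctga
Myd88: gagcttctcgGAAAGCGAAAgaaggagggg
A second motif, TTCNNNGAA, which reads the same on both strands and stood in 2306 promoters (7.02%), was matched once in the *Myd88* promoter, overlapping the first motif, and in no other of the 6 sensing genes, *Isg15* or *Ifit1*. The absence of these letters from a window says nothing about which factors bind there.

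The sensing genes ranged from *Tmem173*, found in most cells, to *Tlr4*, found in few (plot of shares by gene). A gene was called found in a cell with at least 1 read, and intervals are exact 95% Clopper–Pearson intervals, which cover counting error only. At least 30% of cells contained 4 of the 9 genes, and 23.5% of all 23168 genes of the matrix passed the same line. *Ifih1*, at 30.6%, was the member nearest above the line and *Mavs*, at 28.98%, the nearest below. Because the deepest cell had 474.15 times the reads of the shallowest, shares were also taken after thinning each cell to 20000 reads, with 51 shallower cells left out.

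**Figure D1:**
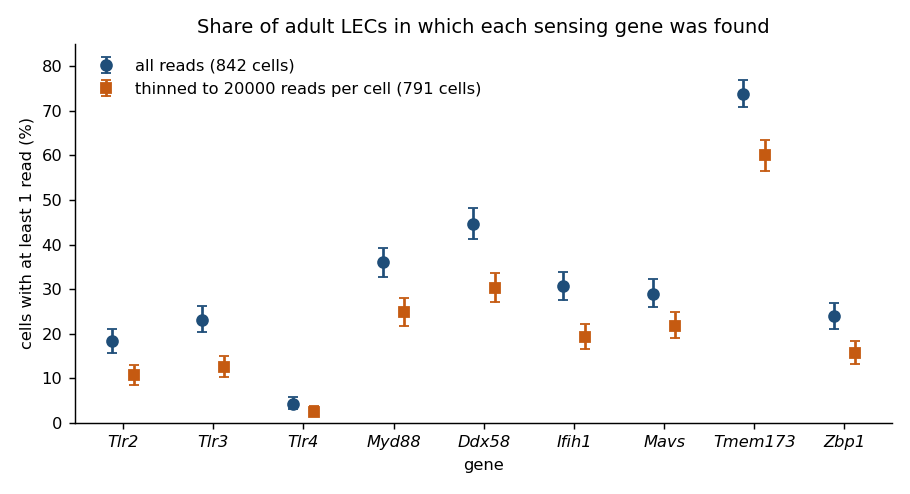
Share of adult LECs with at least 1 read of each sensing gene, in percent, from all reads (circles) and after thinning each cell to 20000 reads (squares), with exact 95% intervals. *Tmem173* stands highest at 73.9% and *Tlr4* lowest at 4.28%, and every share is lower after thinning.

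Among the surface receptors, *Tlr2* (chr3:83836272-83841767) was found in 18.3% (15.7 to 21.1) of cells, and in 10.6% after thinning. Its natural-log value was 0 in the median cell and 2.52 in the highest, with a mean of 0.115 ± 0.339 (SD over cells). *Tlr4* (chr4:66827584-66930284) was found in 36 cells, or 4.28% (3.01 to 5.87), and in 2.40% after thinning. Its highest value was 1.40 and its mean 0.0217 ± 0.140, so most cells gave no read of this receptor at the depth reached. The endosomal receptor *Tlr3* (chr8:45395665-45411080) was found in 23.2% (20.3 to 26.2) of cells, and in 12.5% after thinning. Its mean value was 0.0934 ± 0.255 and its highest 1.72. Exons of *Tlr3* overlap the antisense gene *Gm45542* over part of their length, and since the sources do not say whether counting used strand, reads of the 2 genes there cannot be told apart. *Myd88* (chr9:119335934-119341411), the adaptor of TLR2 and TLR4, was found in 35.99% (32.7 to 39.3) of cells, and in 24.8% after thinning. Its mean value was 0.231 ± 0.430 and its highest 2.59. Its exons share 290 bases with *Acaa1a* on the other strand, with the same uncertainty.

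The cytosolic RNA sensors were each found in more cells than any of the Toll-like receptors, a comparison of shares that is not corrected for transcript length. *Ddx58* (chr4:40203773-40239828) was present in 44.7% (41.3 to 48.1) of cells, and in 30.2% after thinning. The median cell had a natural-log value of 0 and the highest 2.73, with a mean of 0.346 ± 0.552. *Ifih1* (chr2:62595798-62646255) was present in 30.6% (27.5 to 33.9) of cells, and in 19.3% after thinning, with a mean value of 0.172 ± 0.366 and a highest of 2.15. Their adaptor *Mavs* (chr2:131234063-131248025) was present in 28.98% (25.9 to 32.2) of cells, and in 21.7% after thinning, with a mean of 0.245 ± 0.519 and a highest of 2.76. For all 3 genes the cells without a read outnumbered those with one.

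*Tmem173* (chr18:35733679-35740554) was the one member found in most cells, at 73.9% (70.8 to 76.8), and 60.1% after thinning. It was also the one member whose median cell had a value above 0 (0.825), with a mean of 0.835 ± 0.774 and a highest value of 3.22. *Zbp1* (chr2:173206612-173218923), which can start cell death through RIPK3, was found in 23.9% of cells and in 15.5% after thinning, with a highest value of 2.30.

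Levels were compared between genes per kilobase of exon, since long transcripts give more reads in these libraries. Lengths were GENCODE exon lengths on GRCm38, with the exons of all annotated transcripts of a gene merged. *Tmem173* had the highest mean level, 0.790 reads per 10000 per kilobase. It was followed by *Mavs* (0.165) and *Myd88* (0.165), then *Ddx58* (0.103) and *Zbp1* (0.102), then *Tlr2* (0.0752), *Ifih1* (0.0369), *Tlr3* (0.0284) and *Tlr4* (0.00659). On this scale *Tmem173* stood at percentile 96.6 of all genes with a length, and *Tlr4* at percentile 37.1. The step from *Tmem173* to *Mavs* was a factor of 4.78, and the step from *Tlr3* to *Tlr4* a factor of 4.31. *Mavs* and *Myd88* differed by a factor of 1.001 and *Ddx58* and *Zbp1* by 1.02, and both pairs changed places when reads were pooled over cells or natural-log values were averaged. The SD over cells was larger than the mean for each of the 9 genes. It describes the spread between single cells, not the error of a mean, and the order was not tested. *Tmem173* stayed first with pooled reads and with averaged natural-log values, and *Tlr2*, *Ifih1*, *Tlr3* and *Tlr4* kept ranks 6 to 9. Both alternatives used the same merged exon lengths. They cannot show how the order depends on the transcript length taken for each gene.

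A cell contained a median of 3 of the 9 genes and at most 8. None of the 9 was found in 44 cells (5.23%), whose median depth was 60210 reads, against 443178 reads in the 24.2% of cells with 3 of them. *Tlr2*, *Tlr3* and *Tlr4* were all found in 3 cells, while 38.8% of cells contained at least 1 of the 3. *Ddx58*, *Ifih1* and *Mavs* were all found in 50 cells (5.94%), and at least 1 of them in 68.8%. After thinning these counts fell: *Ddx58*, *Ifih1* and *Mavs* were all found in 15 cells (1.90%) and the 3 Toll-like receptors together in 0, while cells with none of the 9 made up 11.1%.

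Of the 9 members, 3 had a correlation of at least 0.2 to the interferon score (histogram of correlations). Across all adult cells, Pearson's r to the score was 0.368 for *Ddx58*, 0.333 for *Zbp1* and 0.227 for *Ifih1*. Of the 9655 genes found in at least 10% of cells, among them all members but *Tlr4*, 63 (0.653%) had an r of at least 0.2. At or above the r of *Ddx58* lay 0.135% of these genes, 0.176% for *Zbp1* and 0.559% for *Ifih1*. *Tlr3* followed at 0.118, with 1.09% of the genes at or above it, and at 0.0897 after thinning. The other 5 had an r between 0.0319 (*Tlr2*) and 0.0408 (*Mavs*), values too weak in sparse counts to be read as a relation. The median over the 9 members was 0.0408, beside a median of −0.000914 over all genes tested. In such a correlation each point is a cell of the 1 pooled sample, and both of its values share that cell's library and depth. The score itself had an r of −0.0172 to log reads per cell, and after thinning r was 0.336 for *Ddx58*, 0.290 for *Zbp1* and 0.190 for *Ifih1*. Without the 84 cells with the highest score, a setting chosen after the data had been seen, r fell to 0.201 for *Ddx58*, 0.209 for *Zbp1*, 0.103 for *Ifih1* and 0.0230 for *Tlr3*, and was 0.106 for *Myd88*. The r of *Ddx58*, *Zbp1* and *Ifih1* was 0.407, 0.348 and 0.243 in the 630 cells without any read of the immune genes.

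**Figure D2:**
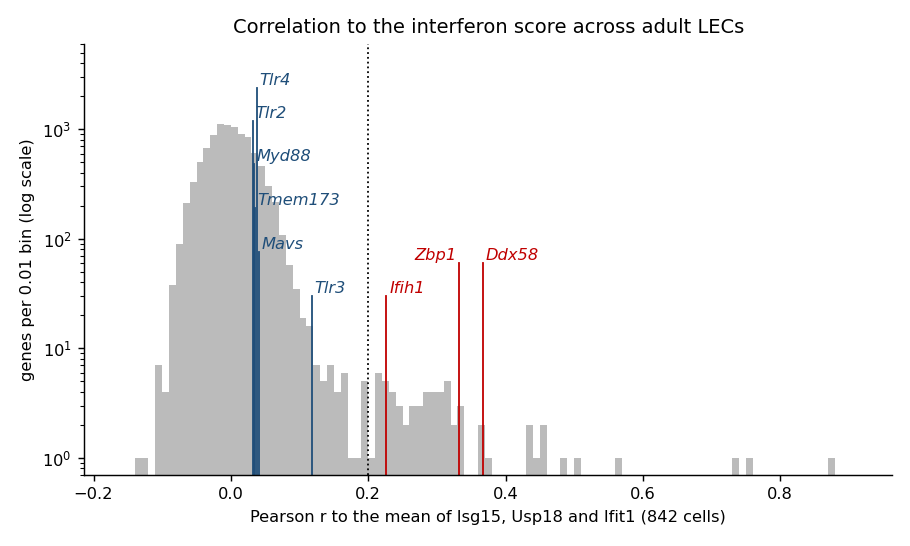
Number of genes (log scale) by Pearson's r to the mean natural-log value of *Isg15*, *Usp18* and *Ifit1* over all adult LECs, for 9655 genes found in at least 10% of cells, the score genes themselves included at the far right. Vertical lines mark the 9 sensing genes, in red at or above the dotted line at 0.2, where *Ifih1* (0.227), *Zbp1* (0.333) and *Ddx58* (0.368) lie, and their heights carry no value. *Tlr4*, found in 4.28% of cells, is drawn but is not among the counted genes.

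Cells were also classed by how many of the 3 score genes were found in them (plot of shares by number of score genes), which restates the same score in levels and is no further support. No score gene was found in 26.8% of cells, 1 in 43.5%, 2 in 18.3% and all 3 in 11.4% (96 cells). *Ddx58* was found in 35.4% of the cells with none, 39.3% with 1, 51.9% with 2 and 75% with 3. Its mean level went from 0.437 ± 0.955 reads per 10000 in cells with none to 1.96 ± 2.47 in cells with all 3. *Zbp1* was found in 15.04%, 19.4%, 29.9% and 52.1% of the same cells. *Ifih1* was found in 21.2%, 29.5%, 32.5% and 54.2%. For each of these genes the interval of the last share lay above that of the first. The intervals cover counting error over cells of 1 sample, and no difference was tested.

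*Tlr3* was found in 16.4% of cells with no score gene and 37.5% of cells with all 3, with 24.04% and 22.1% between. Its intervals in the first class (11.8 to 21.9) and the last (27.8 to 47.97) did not overlap. After thinning they did (6.74 to 13.2 and 11.5 to 32.7). *Tmem173* showed no steady rise over the classes, with 67.3%, 75.4%, 79.9% and 73.96%. *Mavs* was found in 24.3%, 27.3%, 34.4% and 37.5%, the intervals of the first (18.9 to 30.5) and the last (27.8 to 47.97) overlapping. *Tlr2* stayed between 17.3% and 19.8%. Depth moved with the classes, the median reads per cell being 156504, 388455, 550754 and 507254. In cells thinned to equal depth, and classed again on thinned reads, *Ddx58* went from 21.2% to 66.7%, *Zbp1* from 10.2% to 41.3% and *Ifih1* from 12.99% to 41.3%, *Mavs* was at 19.8% and 33.3%, *Tlr3* at 9.60% and 20.6%, and *Tmem173* at 58.5% and 63.5%.

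**Figure D3:**
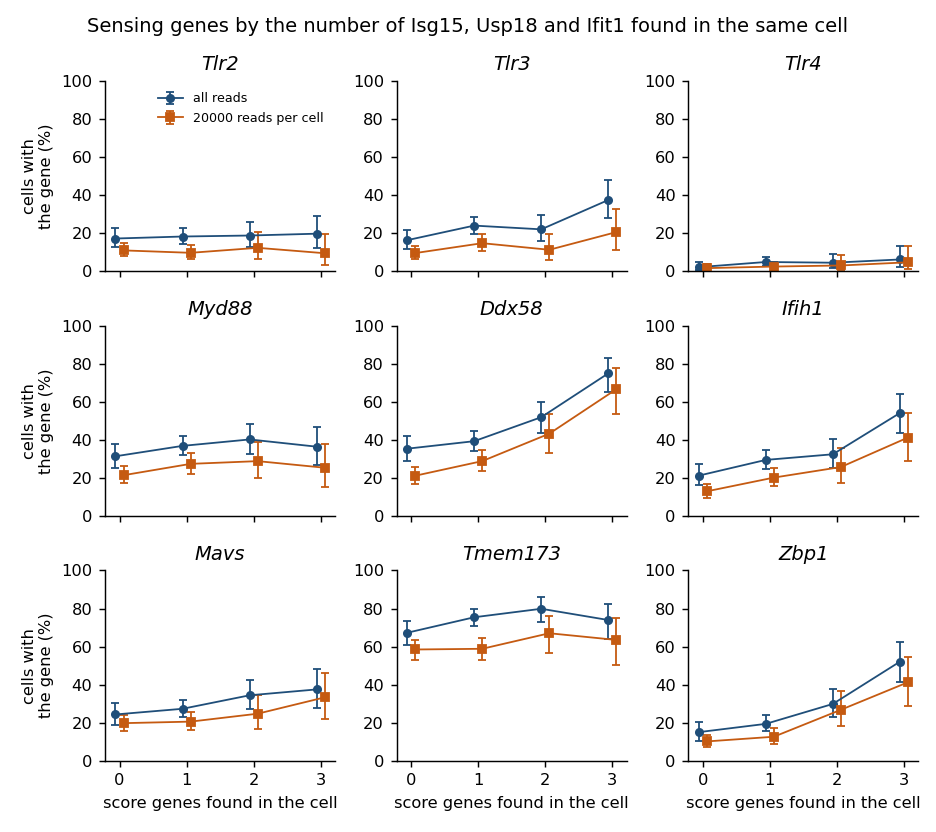
Share of cells with each sensing gene, in percent, by the number of *Isg15*, *Usp18* and *Ifit1* found in the same cell, from all reads (circles) and from cells thinned to 20000 reads (squares), with exact 95% intervals. *Ddx58* climbs from 35.4% to 75% and *Zbp1* from 15.04% to 52.1%, while *Tlr2* stays between 17.3% and 19.8%.

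Between the sensing genes themselves, correlations were weak. Over 36 pairs the median r was 0.0185, the lowest −0.0733 and the highest 0.218, for *Ddx58* with *Zbp1* (0.202 after thinning). *Ddx58* with *Ifih1* was the only other pair above 0.1, at 0.128, but fell to 0.0896 after thinning, where *Ifih1* with *Zbp1* went from 0.0891 to 0.130. *Ddx58* was found in 61.7% of the cells with *Zbp1* and 39.3% of those without it, and after thinning in 45.5% and 27.4%. *Ifih1* was found in 40.3% of the cells with *Zbp1* and 27.6% without, or 30.1% and 17.4% after thinning. All of *Ddx58*, *Ifih1* and *Zbp1* were found in 53 cells (6.29%). For sensor and adaptor, *Mavs* was found in 30.9% (26.2 to 35.8) of the cells with *Ddx58* and 27.5% (23.5 to 31.8) of those without. It was found in 34.9% (29.1 to 41.04) of the cells with *Ifih1* and 26.4% (22.8 to 30.1) of those without, and after thinning in 26.1% (19.4 to 33.9) and 20.7% (17.6 to 24.04). The intervals overlapped in each of these *Mavs* comparisons. For *Ddx58* and *Ifih1* in cells with and without *Zbp1* they did not overlap, with all reads or after thinning.

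**Figure D4:**
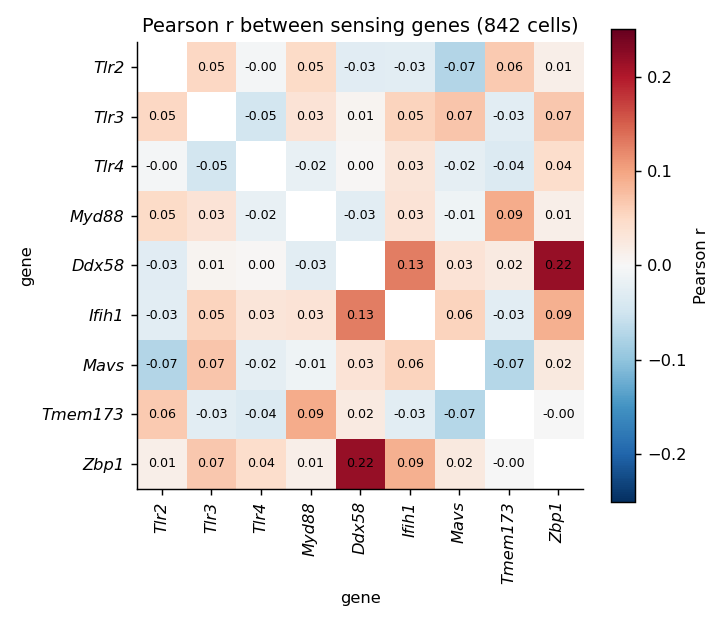
Pearson's r of natural-log values between each pair of the 9 sensing genes over all adult LECs, with red for positive and blue for negative values. *Ddx58* with *Zbp1* (0.22) and *Ddx58* with *Ifih1* (0.13) are the only pairs above 0.1 with all reads. After thinning, which is not drawn, *Ddx58* with *Ifih1* is at 0.0896 and *Ifih1* with *Zbp1* at 0.130.

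The nearest genes of a member, those whose values followed it most closely, were taken over all adult cells from genes found in at least 10% of cells. Genes of the interferon score were not left out of this search. Where one is named, its r restates part of the correlation to the score and is no further support. For *Ddx58* they were *Ifit1* (r of 0.328), *Usp18* (0.296) and *Isg15* (0.280), which are the score genes. For *Zbp1* they were *Usp18* (0.294), *Rtp4* (0.282) and *Isg15* (0.267). For *Ifih1* they were *Usp18* (0.235), *Irf7* (0.207) and *Rtp4* (0.1997). *Irf7*, a transcription factor of the interferon genes, and *Rtp4* are themselves interferon-stimulated.

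*Myd88* and *Tmem173* had other neighbours. *Myd88* was closest to *Kdm6b* (0.219), a histone demethylase, *Txnrd1* (0.215), a thioredoxin reductase, and *Irf1* (0.215). *Tmem173* was closest to *Irf1* (0.215), *Socs3* (0.206), a brake on cytokine signalling, and *Sbno2* (0.201). *Irf1*, *Socs3* and *Sbno2* are on the list of genes that respond to tissue dissociation. *Myd88* is on it too and was left out of the mean taken over the rest of that list. To this dissociation mean *Myd88* had an r of 0.235 and *Tmem173* of 0.203, and 2.38% and 3.02% of the 9655 genes lay at or above these. The other 7 members had an r between −0.0720 and 0.00307. The part of tissue handling in the levels of *Myd88* and *Tmem173* was not tested.

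The remaining members had nearest genes of mixed kinds: *Zufsp* (0.188), *Myo19* (0.184) and *Cyth1* (0.181) for *Tlr2*, *Med16* (0.209), *Acer3* (0.194) and *Gm14176* (0.193) for *Tlr4*, *Gm11518* (0.154), *Tmem186* (0.136) and *Cradd* (0.135) for *Tlr3*, and *Cd59a* (0.154), *Tmem128* (0.144) and *Mgst3* (0.135) for *Mavs*. At this sparsity such values are not read as relations. The same limit holds for the values of like size given above for *Ifih1*, *Myd88* and *Tmem173*. Each was among the 3 highest of a search over 9655 genes.

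The partners of the bacterial sensors were unevenly found. *Lbp*, which carries lipopolysaccharide to CD14, was found in 98.5% of cells at 2.17 reads per 10000 per kilobase, while *Cd14* was found in 17.7% and *Ly96* (MD-2), the co-receptor that TLR4 needs, in 28.6%. *Tlr4*, *Cd14* and *Ly96* were found together in 4 cells (0.475%). Of 9 further Toll-like receptors on the list, *Tlr5* (1.66%) and *Tlr6* (0.356%) had a row, and the others were not analysed here. *Tlr6*, a partner of TLR2, was found in 0 of the cells with *Tlr2*, which allows a share of up to 1.95%. *Myd88* was found in 45.5% (37.4 to 53.7) of the cells with *Tlr2* and 33.9% (30.3 to 37.5) of those without, and after thinning in 35.7% (25.6 to 46.9) and 23.5% (20.4 to 26.8), so the intervals of both pairs overlapped. *Cd14*, which also serves TLR2, was found in 26.6% (19.8 to 34.3) of the cells with *Tlr2* and 15.7% (13.1 to 18.6) of those without, and after thinning in 17.9% (10.4 to 27.7) and 10.3% (8.18 to 12.8), where the intervals overlapped. *Ticam1* (TRIF), the adaptor that TLR3 uses, was found in 7.13% of cells, and in 7.69% of those with *Tlr3*. Of 10 adaptors and kinases of these receptors, 5 were found in at least 30% of cells, beside 23.5% of all 23168 genes. Among the 5 were *Tollip* (55.5%), *Irak1* (39.7%) and *Irak4* (35.4%). None of the 7 adaptors and kinases found in at least 10% of cells reached an r of 0.2 to the interferon score. Of the 9655 genes found that often, 0.653% did.

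Of 7 partners of the RNA sensors, all found in at least 10% of cells, 4 had an r of at least 0.2 to the score. Of all 9655 genes found that often, 0.653% did. The 4 partners were *Eif2ak2* (PKR, 0.363), *Dhx58* (LGP2, a regulator of RIG-I and MDA5, 0.319), *Adar* (an RNA-editing enzyme, 0.259) and *Trim25* (a ubiquitin ligase of RIG-I, 0.235). *Rnf125* (0.0317), *Traf3* (0.0112) and *Rnf135* (−0.0211) were the rest. *Trim25* was found in 55.1% of the cells with *Ddx58* and 39.1% of those without, and after thinning in 38.5% and 28.3%.

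Around *Tmem173* the upstream enzyme was seldom found. *Mb21d1* (cGAS) was found in 41 cells, or 4.87% (3.52 to 6.55). *Tmem173* was found in 73.2% of these 41 cells and 73.9% of the others. The kinase *Tbk1*, which STING recruits, was found in 53.3% of cells and the factor *Irf3*, its substrate, in 65.3%. *Samhd1*, an enzyme that breaks down deoxynucleotides, was found in 57.2% with an r of 0.277 to the score, and *Aim2*, another DNA sensor, in 0.356%. Beside *Zbp1*, *Ripk3* was found in 17.1%, *Mlkl*, the effector of necroptosis, in 19.7% and *Ripk1* in 43.6%. *Zbp1*, *Ripk3* and *Mlkl* were found together in 16 cells (1.90%). *Ripk3* was found in 22.4% of the cells with *Zbp1* and 15.4% of those without, and after thinning in 10.6% and 9.73%. *Mlkl* was found in 26.4% and 17.6%, and after thinning in 13.8% and 12.9%.

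Downstream, *Irf7* was the one of 10 kinases and transcription factors with an r of at least 0.2 (0.443), though 7 of the 10 were found in at least 30% of cells. An r of at least 0.2 was reached by 0.653% of the 9655 genes, and 23.5% of all 23168 genes were found in at least 30% of cells. Among the signalling genes of the interferon receptors, *Irf9* had an r of 0.371 and *Stat2* of 0.334. The receptor chain *Ifnar2* was found in 82.4% of cells and *Ifnar1* in 44.1%, with an r of 0.0435 and −0.0193. All 9 further interferon-stimulated genes found in at least 10% of cells had an r of at least 0.2. The 10 interferon genes listed had no row and were not analysed here. Among the 63 genes with an r of at least 0.2, 46 had a promoter in the table, and 16 of these (34.8%) contained the ISRE-type motif, beside 2.83% of 7112 genes below 0.2. *Ddx58* and *Ifih1* were among the 46 without a match. With the score genes and the sensing genes left out, the share was 14 of 42 (33.3%). These genes were picked by their correlation to the score in the same data, so the share is no support for any sensing gene.

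The adult cells were clustered with the 9 sensing genes and the 3 score genes held out of the variable genes, so that the members did not shape the groups. Of the 5 clusters, cluster 3 (16.98% of cells, led by *Gm525*, *Aqp1* and *Stab2*) raised 5 of 5 *Ptx3*-positive capillary markers and was called *Ptx3*-positive capillary-like. Cluster 4 (50 cells, led by *Tppp3*, *Cyp4b1* and *Fndc1*) raised 5 of 5 *Ptx3*-negative capillary markers and was called *Ptx3*-negative capillary-like. Cluster 5 (44 cells), led by *Slc41a1* and the stress gene *Gdf15*, raised *Cldn11*, *Itga9* and *Neo1*, which are 3 of 7 valve markers, and was called valve-like. Clusters 1 (36.2% of cells, led by *Lyve1*, *Slco2b1* and *C3*) and 2 (35.6%, led by *Igfbp5*, *Clca3a1* and *Adamts1*) were left unnamed. Median reads per cell were 317771, 351502, 347487, 554243 and 287988 in clusters 1 to 5.

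Shares of the sensing genes were compared between the clusters (plot of shares by cluster). The share of cells differed by at least 20 percentage points between the highest and lowest cluster for 1 of the 9 genes, *Tlr2*, and for 15.9% of the 9655 genes. Staying below this line was thus common to most genes and is not particular to the members. *Tlr2* was found in 30.8% (23.3 to 39.03) of the *Ptx3*-positive capillary-like cells and 4.55% (0.555 to 15.5) of the valve-like cells. It was found in 18.03% of cluster 1, 16.3% of cluster 2 and 8% (2.22 to 19.2) of the *Ptx3*-negative capillary-like cells. After thinning, the difference for *Tlr2* was 15.4 percentage points (cluster 3 against cluster 4). Then 0 of 9 members reached 20, beside 15.4% of the 9655 genes. The *Tlr2* intervals of clusters 3 and 5 did not overlap with all reads and did so after thinning. With fewer variable genes 1 member passed 20 percentage points, beside 15.4% of the 9655 genes. The numbers were 3 (27.2%) at the default resolution, 4 (19.8%) without module scores and 1 (20.9%) without the cells with immune reads. The summed immune genes were at 2.69 reads per 10000 in cluster 3 and at 0.196 to 0.602 in the others, and *Tlr2* had an r of 0.118 to this sum. Both values rested on the 1 cell with 286.3 immune reads per 10000: without it, a setting added after the data had been seen, cluster 3 was at 0.691 and the r was −0.0128. In the cells without immune reads, likewise a later setting, *Tlr2* was found in 27.4% of cluster 3 and 3.33% of cluster 5.

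*Tlr4* was found in 8.39% (4.41 to 14.2) of cluster 3 and in 0 of the 44 cells of cluster 5, which allows up to 6.82%. *Zbp1* was found in 30.1% (22.7 to 38.3) of cluster 3 and 12% (4.53 to 24.3) of cluster 4. *Ddx58* lay between 34.1% and 50.3%, *Mavs* between 15.9% and 32.3%, *Ifih1* between 25% and 38%, *Tmem173* between 66% and 77%, *Myd88* between 31.8% and 39.2% and *Tlr3* between 18.9% and 24.3%. For these genes the intervals of the highest and lowest cluster overlapped. Within clusters, the r of *Ddx58* to the interferon score lay between 0.291 (cluster 2) and 0.623 (cluster 5, 44 cells), and that of *Zbp1* between 0.254 and 0.403. That of *Ifih1* lay between 0.148 (cluster 1) and 0.390 (cluster 5), below 0.2 in cluster 1 alone. *Tlr3* was at 0.743 in cluster 4 and between −0.103 and 0.122 in the others. In cluster 4 it had a read in 12 of the 50 cells, with a mean natural-log value of 0.0690. A few cells can set such an r, and it is not read as a relation.

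**Figure D5:**
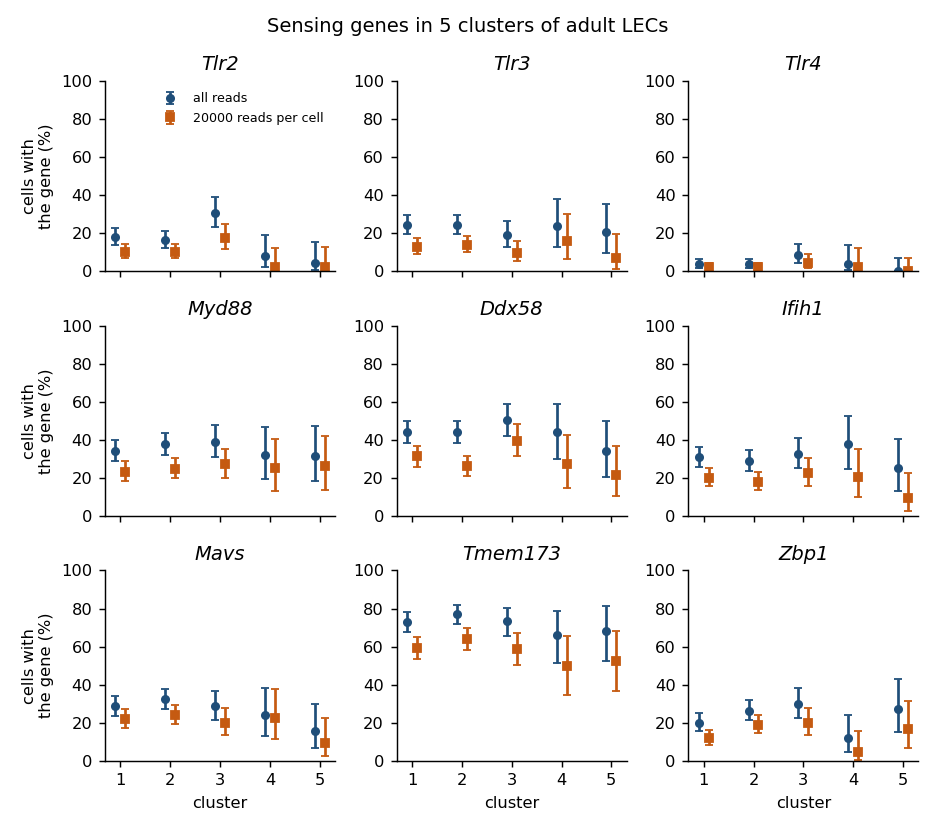
Share of cells with each sensing gene, in percent, in clusters 1 to 5 (cluster 4 has 50 cells and cluster 5 has 44), from all reads (circles) and after thinning to 20000 reads (squares), with exact 95% intervals, the 0 of 44 for *Tlr4* being drawn with the limit that 3 counts allow. *Tlr2* is highest in cluster 3 (30.8%) and lowest in cluster 5 (4.55%), and *Tmem173* lies between 66% and 77% in all 5.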

How the data were processed

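Adult nasopharyngeal LECs were sorted and sequenced by Smart-seq3. The matrix holds 842 adult cells, over which all shares and correlations were taken. Per the labels and methods, the authors used STAR for alignment to mm10, featureCounts (Subread) for counting and Seurat 4.1.0 for filtering and normalization. Annotation, strand and multi-mapping settings are not given in the sources used here. The deposited values are natural log values of reads per 10000 with a pseudocount of 1: the methods name log2, but exp(value) minus 1 summed to 10000 in every cell. Whole reads were recovered from 100% of values above 0 (tolerance 0.01). Molecular identifiers were not used as far as stated, so reads are not independent molecules.

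Thinning to 20000 reads (fixed seed) kept 791 cells. Clustering followed the methods in Seurat 5.3.0 (R 4.3.3), with 2000 variable genes less the 5 held-out genes among them, 15 principal components, regression on total reads, the mitochondrial share and scores for dissociation (135 genes) and ribosomal genes, and the smallest resolution giving 5 clusters (0.45). The dissociation list was rebuilt because the methods do not print theirs. A marker was raised at a log2 ratio of at least 0.3 and in at least 30% of a cluster's cells. Cluster names were rebuilt here and may differ from the study's. No doublet caller was run. Lists for other cell types were checked besides the immune list: fibroblast, mural, epithelial and Schwann markers had a median share of cells between 0.416% and 2.14% per list, and of the blood endothelial list *Emcn* (94.2%) and *Plvap* (77.8%) were found in most cells and *Flt1* (2.49%) and *Vwf* (5.11%) in few.

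The members, gene lists and thresholds (30% of cells, r of 0.2, 20 percentage points) were chosen with earlier results of these data known. Named genes are the members, score genes, partners on pathway lists, the 3 genes nearest to each member and cluster markers. With 1 sample nothing was tested. The steps were tested on simulated data. Exon lengths and coordinates come from GENCODE on GRCm38 (95.9% of symbols matched), and promoter sequences from RefSeq on GRCm38.p6. Cluster 2 raised 4 of 4 precollecting markers, but most of these came from earlier results, so it was not named. Alternatives changed depth, the reads required to call a gene found, cells, the score, the correlation measure and the clustering. Scripts ran in Python 3.11.15 with SciPy 1.17.1, pandas 2.3.3 and NumPy 2.4.6.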

Additional observations from a re-analysis of the deposited data

How the results depend on the processing

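The number of sensing genes found in at least 30% of cells was 4, and it was 2 after thinning and 1 when a natural-log value above 1 was required, both stricter by construction, and 5 in cells with at least 3000 genes, where *Mavs* was at 31.7%. Between 2 and 3 genes had an r of at least 0.2 to the interferon score under every alternative run, with *Ddx58* and *Zbp1* always among them, and the median r lay between 0.0408 and 0.0744. Only 5 of 9 genes kept their rank by level per kilobase with pooled reads, and 5 with mean natural-log values. The number of sensing genes differing by 20 percentage points between clusters was 1, beside 15.9% of the 9655 genes found in at least 10% of cells. At the default resolution of 0.8 it was 3 (*Tlr2*, *Ifih1* and *Mavs*), beside 27.2% of the 9655 genes. It was 0 after thinning (15.4%) and 4 without module scores (*Tlr2*, *Myd88*, *Ddx58* and *Tmem173*, beside 19.8%). The cause was not tested. For single genes, 21 of 36 alternative shares moved out of the 95% interval and 11 of 81 alternative correlations moved by more than 0.05. Against a score of 15 other interferon-stimulated genes, *Zbp1* had an r of 0.401, and *Myd88* and *Tmem173* had −0.0401 and −0.0411. No paired analysis was possible because there is 1 group. Leaving out a plate or mouse was not done because the column names show neither. Shares of all 9 genes fell when cells were thinned.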
